A study of Mus musculus with 6 samples.

Results

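The tricarboxylic acid (TCA) cycle enzymes described here are 7 genes for subunits or enzymes of the mitochondrial cycle, the gene of a cytosolic isocitrate dehydrogenase, and that of the enzyme that diverts the cycle to itaconate. The members were the symbols Cs, Idh1, Idh3a, Idh3b, Ogdh, Suclg1, Fh1, Mdh2 and Acod1, matched in the deposited gene table. All 9 were found, each with 1 entry among 52550 genes, and all 9 had enough reads to be tested. The macrophages were grown from C57BL/6 mouse bone marrow for 7 days with 25 ng/ml macrophage colony-stimulating factor. They then received medium in which apoptotic chondrocytes had been kept (AC CM, 3 samples) or medium of normal chondrocytes (C CM, 3 samples). The labels used here state neither how the chondrocytes were made apoptotic nor how long the macrophages were exposed. They also do not say whether replicates are separate cultures or animals, so each p-value reflects sample-to-sample spread that could be technical.

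In the TCA cycle, acetyl groups enter through citrate synthase and are oxidised to carbon dioxide while reduced cofactors are passed to the respiratory chain. In macrophages the cycle is also a source of signalling metabolites. Activated cells can decarboxylate cis-aconitate to itaconate with the enzyme encoded by Acod1 (also known as Irg1), a gene strongly induced by bacterial lipopolysaccharide and interferons. Itaconate inhibits succinate dehydrogenase and modifies KEAP1, the repressor of the antioxidant factor NRF2. Succinate and fumarate, substrates further along the cycle, also act on inflammatory gene expression in macrophages.

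Among the 9 members, those called moved in different directions after AC CM. Idh3a, the catalytic subunit gene of mitochondrial NAD-dependent isocitrate dehydrogenase, was 1.66-fold higher. Idh1, the cytosolic NADP-dependent isocitrate dehydrogenase gene, was 1.38-fold lower, and Fh1, the fumarase gene, was 1.27-fold lower. For Cs, Idh3b and Ogdh the 95% interval of the fold change stayed between 0.882 and 1.12. Acod1 was low in both groups and did not pass. In all, 1 member rose, 2 fell and 6 did not pass at an adjusted p under 0.05 with edgeR's quasi-likelihood test. Over all 17863 genes tested, 26.5% were called in either direction, 13.3% higher and 13.3% lower. The 3 calls among 9 members are close to that share, so the count by itself is not a result about these enzymes. Their median log2 fold change was -0.03, beside -0.00458 over all genes tested.

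The libraries held between 65630784 and 80105872 counts each. Of 12 macrophage marker genes, all 12 were detected, with summed levels of 22762 to 23616 CPM (counts scaled to a common library total) in AC CM libraries and 25322 to 26725 CPM in C CM libraries, and 4 of them fell. Neutrophil and granulocyte precursor markers summed to 206 to 223 CPM in AC CM libraries and 936 to 1083 CPM in C CM libraries, with 11 of 13 lower, Mmp8 and Retnlg not passing, and none of the 13 at 0. Monocyte markers summed to 298 to 339 CPM in AC CM libraries and 658 to 809.7 CPM in C CM libraries, with 4 of 6 lower and none at 0. Ly6c2 and Vcan did not pass, with log2 fold changes of -1.06 and 0.27. Chondrocyte markers summed to 109 to 112 CPM in AC CM libraries and 72.7 to 84.6 CPM in C CM libraries. Of the 10 listed, 3 (Acan, Hapln1 and Col9a1) were too low to be tested. Of 7 tested, 2 were higher (Col11a1 and Prg4). Sox9 and Matn1 had negative log2 fold changes, -0.01 and -2.76, and did not pass. Col2a1 and Col11a1 made up most of the sums. They averaged 43.7 and 62.5 CPM in AC CM libraries, against 38.3 and 35.6 CPM in C CM libraries. Hepatocyte markers summed to 51.1, 607 and 1401 CPM in AC CM replicates 1, 2 and 3, against 44.9, 1.62 and 0.537 CPM in C CM replicates 1, 2 and 3. Of those 12 genes, 11 could be tested and 0 passed, and none was at 0 in every library. Each call was therefore also examined without those 2 AC CM libraries, in a fit where the single remaining one is taken to vary as much as the C CM group. In bulk RNA, fewer cells of a type and less RNA per cell cannot be told apart. The part of these other cell types in the members' values was not tested.

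**Figure D1:**
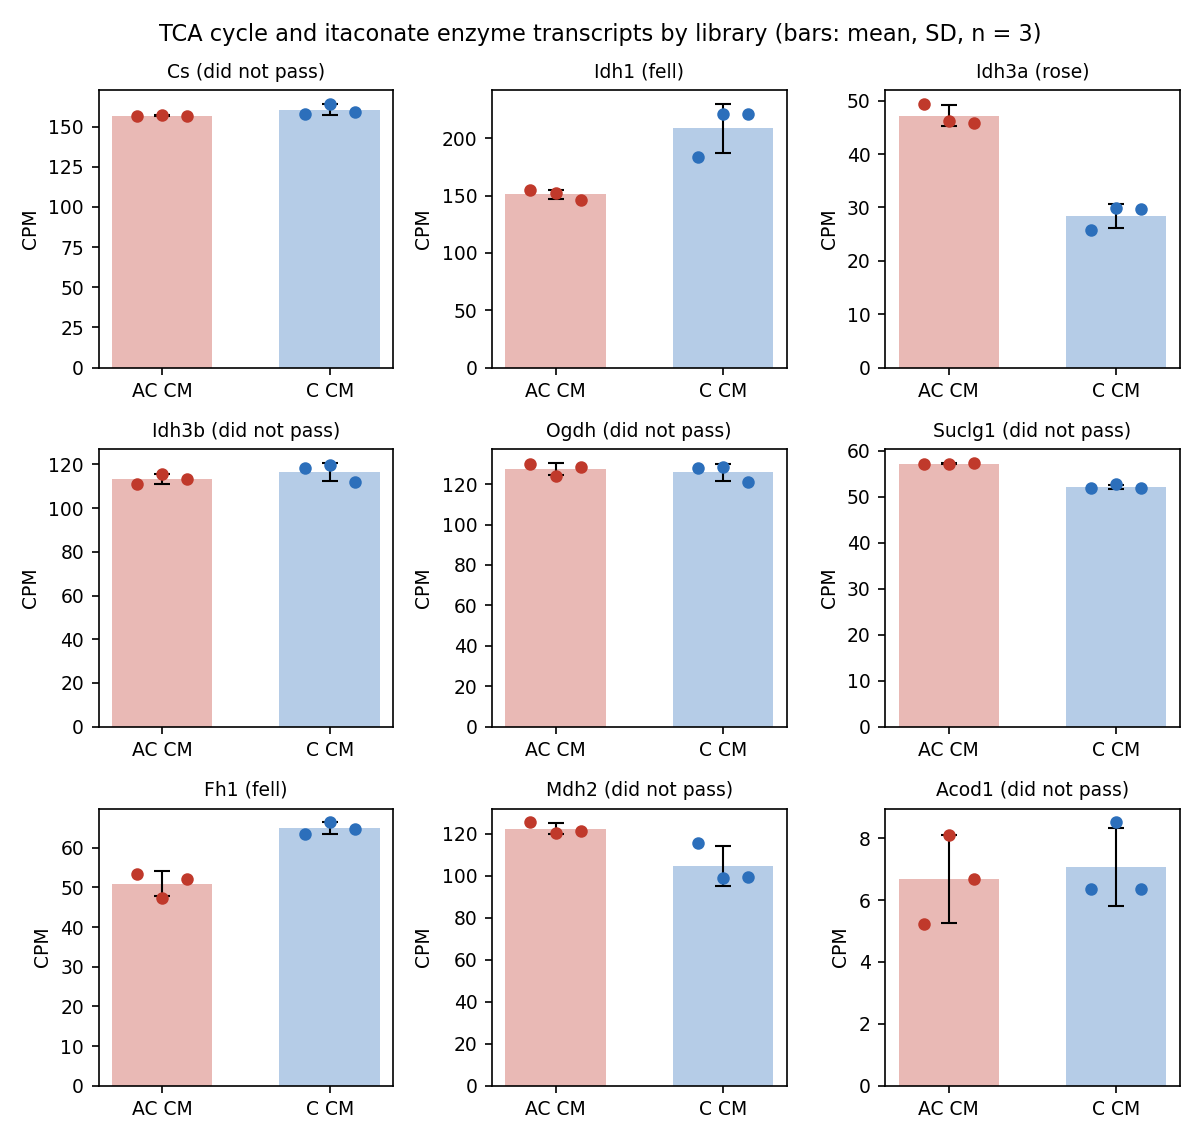
Level of each of the 9 transcripts in CPM (y axis from 0) in the 3 AC CM libraries (red, left) and the 3 C CM libraries (blue, right). Points are libraries in replicate order, bars are means and whiskers are SD; the groups are apart for Idh1, Idh3a, Fh1, Mdh2, Suclg1 and, narrowly, Cs, and overlap for Idh3b, Ogdh and Acod1.

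Cs (ENSMUSG00000005683.8, chromosome 10, 128337734 to 128362479, plus strand) encodes citrate synthase, which joins acetyl-CoA to oxaloacetate. It had 157 CPM in each of the 3 AC CM libraries, against 158, 164 and 159 CPM in C CM replicates 1, 2 and 3. The groups just missed each other, and the change did not pass: it was -0.03 on the log2 scale (SE 0.06; adjusted p = 0.720 by edgeR). The interval of the fold change ran from 0.893 to 1.07. The related gene Csl had at most 2 counts in any library.

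Isocitrate is oxidised to 2-oxoglutarate by separate enzymes in the cytosol and the mitochondrion. Idh3a (ENSMUSG00000032279.11, chromosome 9, 54586334 to 54604661, plus strand) had 49.4, 46.3 and 45.9 CPM in AC CM replicates 1, 2 and 3, against 25.9, 29.8 and 29.7 CPM in C CM replicates 1, 2 and 3. Every AC CM library was far above every C CM library. The log2 fold change was 0.73 (SE 0.09, adjusted p = 3.91e-04, edgeR quasi-likelihood test), with a fold of 1.66 and an interval of 1.45 to 1.90. It ranked 660 by p among the genes tested, and 18.6% of them had a larger change in either direction. The call held in all 17 alternatives, where the log2 fold change ran from 0.67 to 0.79.

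The other subunits of the same enzyme did not follow Idh3a. Idh3b (ENSMUSG00000027406.12, chromosome 2, 130279309 to 130284547, minus strand), a regulatory subunit gene, had 111, 116 and 113 CPM in AC CM replicates 1, 2 and 3, against 118, 119.8 and 112 CPM in C CM replicates 1, 2 and 3. The groups overlapped, and the log2 fold change was -0.04 (SE 0.06, adjusted p = 0.664, edgeR). Idh3g, the X-linked gene of the remaining regulatory subunit, fell: it had 60.8, 58.7 and 62.2 CPM in AC CM libraries, against 89.3, 80.5 and 90.1 CPM in C CM libraries. Its log2 fold change was -0.52 (SE 0.07, adjusted p = 0.00101, edgeR), and without AC CM replicates 2 and 3 it was as large, at -0.52, but no longer passed (adjusted p = 0.0819). The 3 subunit genes of 1 enzyme thus gave a rise, a difference that did not pass and a fall. Idh3b shares 5 exon bases with Nop56 on the opposite strand, a gene with 3988 to 4672 counts in AC CM libraries and 2136 to 2248 counts in C CM libraries. Whether counting used strand is not stated.

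Idh1 (ENSMUSG00000025950.16, chromosome 1, 65158616 to 65186500, minus strand) makes cytosolic NADPH. It had 154, 152 and 147 CPM in AC CM replicates 1, 2 and 3, against 184, 221 and 221 CPM in C CM replicates 1, 2 and 3. The groups did not overlap, and C CM replicate 1 was the lowest of its group. The log2 fold change was -0.47 (SE 0.08, adjusted p = 0.00335, edgeR). On AC CM replicate 1 alone it was -0.44 and no longer passed (adjusted p = 0.141). Idh2, which encodes the mitochondrial NADP-dependent enzyme, averaged 74.6 ± 3.65 CPM in AC CM libraries and 66.4 ± 4.80 CPM in C CM libraries (SD, n = 3 each). Its log2 fold change of 0.17 (SE 0.08, adjusted p = 0.152, edgeR) did not pass, but passed without C CM replicate 1 (0.23, adjusted p = 0.0232).

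The balance between these transcripts was compared within each library, where no scaling is needed. The ratio of Idh1 to Idh3a counts was 3.13, 3.29 and 3.20 in AC CM replicates 1, 2 and 3, against 7.11, 7.41 and 7.46 in C CM replicates 1, 2 and 3. The values were tight within each group and far apart between groups, with a difference in mean log2 ratio of -1.19. The ratio of Idh3a to Idh3b counts was 0.446, 0.400 and 0.404 in AC CM libraries, against 0.219, 0.249 and 0.265 in C CM libraries, a difference of 0.77 on the log2 scale. Here too every AC CM library was above every C CM library. For both ratios, and for Acod1 to Idh3a described further on, a two-sided exact permutation test gave p = 0.1, also after Benjamini-Hochberg adjustment over the 3 ratios. That is the smallest p that 3 samples against 3 allow. All 3 ratios contain Idh3a, which was already called in these same libraries. They partly restate that call and are not separate support for it.

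Ogdh (ENSMUSG00000020456.17, chromosome 11, 6291633 to 6356642, plus strand) encodes the first component of the 2-oxoglutarate dehydrogenase complex. It had 129.9, 124 and 129 CPM in AC CM replicates 1, 2 and 3, against 128, 129 and 121 CPM in C CM replicates 1, 2 and 3. The groups overlapped and the log2 fold change was 0.02 (SE 0.06, adjusted p = 0.863, edgeR). Its relative Ogdhl had 147 to 217 counts in AC CM libraries and 78 to 121 counts in C CM libraries. Dld, the shared dihydrolipoamide dehydrogenase component of this complex and of pyruvate dehydrogenase, rose to 104 ± 3.62 CPM in AC CM libraries, against 80.0 ± 10.2 CPM in C CM libraries (SD, n = 3 each). Its log2 fold change was 0.38 (SE 0.10, adjusted p = 0.0176, edgeR). The Dld call was lost without AC CM replicate 1 (0.36, adjusted p = 0.0660), without AC CM replicate 2 (0.38, 0.0595) and without both AC CM replicates 2 and 3 (0.42, 0.184).

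Suclg1 (ENSMUSG00000052738.14, chromosome 6, 73248382 to 73276911, plus strand) encodes the alpha subunit of succinyl-CoA synthetase, the step that forms succinate. It had 57.1, 57.0 and 57.4 CPM in AC CM replicates 1, 2 and 3, against 51.9, 52.7 and 51.8 CPM in C CM replicates 1, 2 and 3. Replicates were tight, with a coefficient of variation of 0.318% in AC CM libraries and 0.914% in C CM libraries, and the groups did not overlap. The log2 fold change was small, 0.13 (SE 0.06), and did not pass (adjusted p = 0.168, edgeR). Suclg2, the beta subunit gene of the GTP-forming enzyme, rose by 0.25 (SE 0.07, adjusted p = 0.0264, edgeR). It had 48.9, 48.0 and 47.9 CPM in AC CM libraries, against 40.2, 41.9 and 39.6 CPM in C CM libraries. The Suclg2 call was lost without AC CM replicate 1 (adjusted p = 0.105), AC CM replicate 2 (0.0848), AC CM replicate 3 (0.0891) or C CM replicate 3 (0.0698), and without AC CM replicates 2 and 3 (0.351). In those fits the log2 fold change was 0.24, 0.25, 0.26, 0.23 and 0.26, in that order.

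Fh1 (ENSMUSG00000026526.14, chromosome 1, 175600374 to 175625635, minus strand) encodes fumarase, which hydrates fumarate to malate. It had 53.4, 47.3 and 52.1 CPM in AC CM replicates 1, 2 and 3, against 63.5, 66.6 and 64.7 CPM in C CM replicates 1, 2 and 3. All 3 AC CM libraries were below all 3 C CM libraries. The log2 fold change was -0.35 (SE 0.07, adjusted p = 0.00844, edgeR). On AC CM replicate 1 alone it was -0.29 and no longer passed (adjusted p = 0.299). The gene Kmo overlaps Fh1 on the opposite strand without shared exon bases and had 40 to 242 counts in AC CM libraries and 451 to 520 counts in C CM libraries. Fh1 itself had 3661 to 4150 counts in AC CM libraries and 4161 to 4554 counts in C CM libraries.

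Idh1 and Fh1 were the members that fell, and their promoters are shown because they are the members called in the same direction. The windows run from 250 bases before to 50 bases after a RefSeq start site (build GRCm38.p6) and are written along the gene's own strand. Capitals mark a CCAAT box (CCAAT, or ATTGG on the other strand), a motif added after the sequences had been seen.
Idh1 promoter, chr1:65186430-65186729, minus strand: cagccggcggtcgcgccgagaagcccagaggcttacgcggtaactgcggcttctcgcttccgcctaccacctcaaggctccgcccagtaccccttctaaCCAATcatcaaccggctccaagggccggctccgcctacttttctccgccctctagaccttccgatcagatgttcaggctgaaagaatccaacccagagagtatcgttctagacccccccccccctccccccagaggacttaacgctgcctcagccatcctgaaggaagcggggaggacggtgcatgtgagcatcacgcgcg
Fh1 promoter, chr1:175625586-175625885, minus strand: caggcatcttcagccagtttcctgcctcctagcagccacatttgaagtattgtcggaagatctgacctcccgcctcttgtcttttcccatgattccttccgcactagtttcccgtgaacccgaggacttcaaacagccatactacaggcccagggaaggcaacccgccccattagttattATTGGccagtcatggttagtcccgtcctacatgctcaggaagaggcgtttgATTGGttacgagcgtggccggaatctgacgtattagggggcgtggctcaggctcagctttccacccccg

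Idh1 had 1 CCAAT box, starting at -151 from the start site, and Fh1 had 2, starting at -70 and -19. The motif was in 6 of the 8 members with a promoter entry and in 37.4% of 32851 mouse promoters of the same length. As it was added after these windows had been seen, the comparison is not a test of enrichment. Besides Idh1 and Fh1, the motif was in Cs, Idh3b, Ogdh and Acod1, which were not called. The members matched were all but Idh3a. An E-box (CACGTG), an NRF1 motif, an AP-1 motif (TGANTCA), an antioxidant response element (TGACNNNGC) and a kappa B motif were searched on both strands. None of these motifs occurred in any of the 8 windows, beside 7.15%, 4.60%, 7.81%, 12.4% and 1.20% of all promoters. An ETS motif (CCGGAAG) was in Idh3b and in 8.86% of promoters. The pattern searched for a sterol regulatory element (TCACNNCAC) was in Ogdh, with the letters TCACGTCAC, and in 3.77% of promoters. Such matches describe letters and not binding.

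Mdh2 (ENSMUSG00000019179.10, chromosome 5, 135778480 to 135790398, plus strand) encodes mitochondrial malate dehydrogenase, which regenerates oxaloacetate. It had 126, 121 and 121 CPM in AC CM replicates 1, 2 and 3, against 116, 98.8 and 99.5 CPM in C CM replicates 1, 2 and 3. The groups did not overlap, with C CM replicate 1 nearest to the AC CM libraries. The log2 fold change was 0.23 (SE 0.08) and just missed the threshold (adjusted p = 0.0592, edgeR). It passed with DESeq2 (adjusted p = 0.0452) and without C CM replicate 1 (0.31, adjusted p = 0.00202), while the authors' deposited table gives an adjusted p of 0.0561. The cytosolic enzyme gene Mdh1 fell, with 126, 122 and 127 CPM in AC CM libraries against 151, 159 and 157 CPM in C CM libraries (log2 fold change -0.32, SE 0.06, adjusted p = 0.00461, edgeR). On AC CM replicate 1 alone Mdh1 stood at -0.31 and no longer passed (adjusted p = 0.218).

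**Figure D2:**
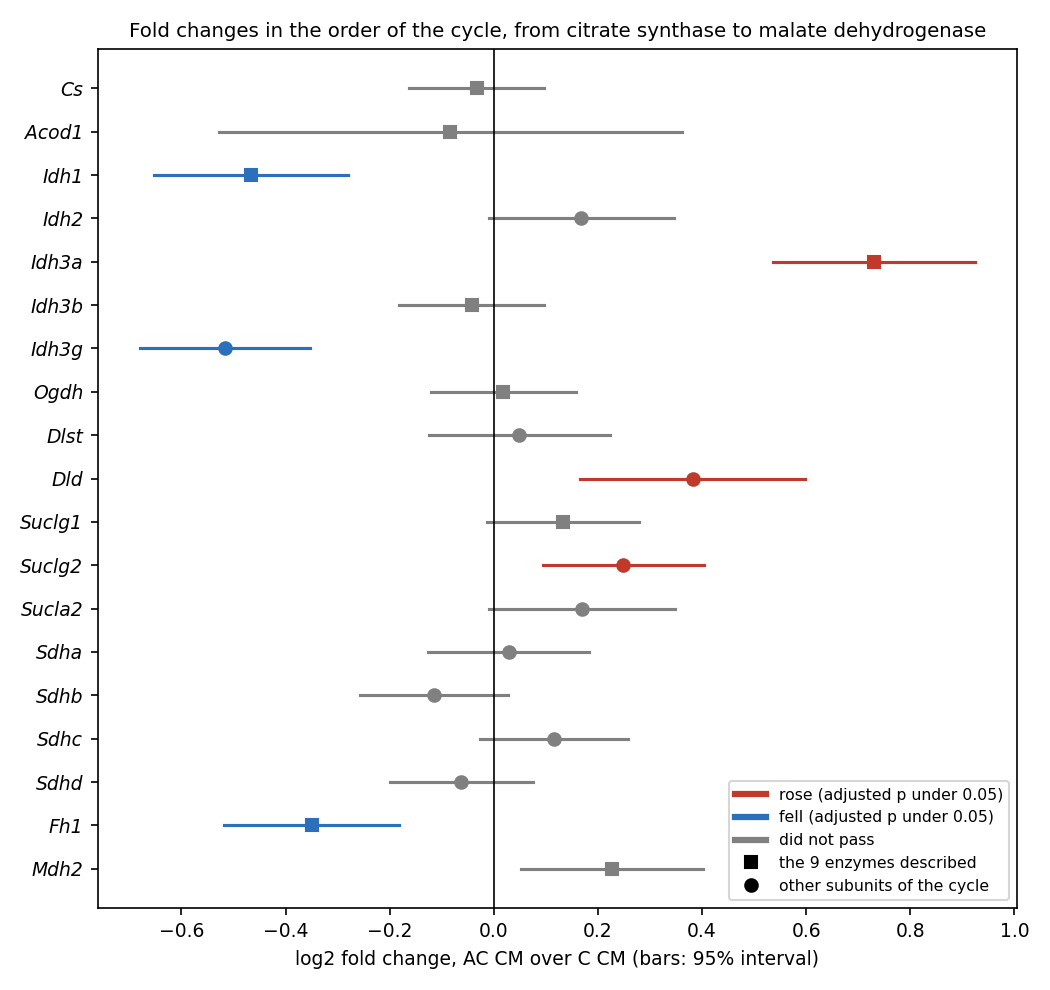
Log2 fold change of AC CM over C CM (x axis) for 19 genes in the order of the cycle (y axis), with the 95% interval of the edgeR fit over 3 libraries a group. Squares are the 9 enzymes described and circles are other subunits of the cycle; Idh3a lies highest at 0.73, and Idh3g (-0.52), Idh1 (-0.47) and Fh1 (-0.35) lie lowest among the genes called.

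Acod1 (ENSMUSG00000022126.6, chromosome 14, 103046977 to 103056573, plus strand) encodes cis-aconitate decarboxylase. Its raw counts were 369, 627 and 534 in AC CM replicates 1, 2 and 3, against 416, 584 and 426 in C CM replicates 1, 2 and 3. On the scaled level this was 5.24, 8.11 and 6.70 CPM in AC CM libraries, against 6.34, 8.54 and 6.36 CPM in C CM libraries. The groups overlapped, and replicate 2 was the highest of each. The log2 fold change was -0.08 (SE 0.20, adjusted p = 0.800, edgeR), with an interval of the fold from 0.693 to 1.28, wider than that of any other member. The sign turned without AC CM replicate 1 (0.06) or without C CM replicate 2 (0.07), and it was -0.44 (adjusted p = 0.419) on AC CM replicate 1 alone.

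Relative to Idh3a, Acod1 counts were 0.106, 0.175 and 0.146 in AC CM replicates 1, 2 and 3, against 0.245, 0.286 and 0.214 in C CM replicates 1, 2 and 3. Every AC CM ratio was lower, with a difference in mean log2 ratio of -0.82 (exact permutation p = 0.1 as above). Idh3a rose in the fit over all genes and Acod1 did not pass there. The genes whose profile over the 6 libraries was nearest to that of Acod1 were Dcps, Abr, Kif23 and Spag5. Their root mean square differences in centred log2 CPM were 0.0282, 0.0897, 0.0916 and 0.0924. For Idh3a the nearest were Tm6sf1 (0.0270), Hat1 (0.0339), Ptpra (0.0357) and Lpxn (0.0376), with log2 fold changes between 0.71 and 0.75. As the profiles include the difference between the groups, the choice itself fixed that these genes have fold changes like those of Acod1 or Idh3a.

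Per kilobase of annotated exons, the order of the levels was the same in both groups except in 1 place. Idh1 was highest, at 54.5 ± 1.45 CPM per kb in AC CM libraries and 75.3 ± 7.76 in C CM libraries (SD, n = 3 each). Mdh2 followed at 34.4 ± 0.798 and Idh3b at 33.1 ± 0.682 CPM per kb in AC CM libraries. In C CM libraries these changed places, with Mdh2 at 29.4 ± 2.69 and Idh3b at 34.1 ± 1.19 CPM per kb. Cs, Ogdh, Fh1 and Suclg1 came next in both groups, from 27.1 down to 12.4 CPM per kb in AC CM libraries and from 27.8 down to 11.3 in C CM libraries. Idh3a was next to last, at 9.30 ± 0.385 CPM per kb in AC CM libraries and 5.61 ± 0.442 in C CM libraries. Acod1 was lowest, at 2.55 ± 0.547 CPM per kb in AC CM libraries and 2.70 ± 0.481 in C CM libraries. Of neighbours in this order, Mdh2 and Cs in C CM libraries had overlapping ranges, and no other pair did in either group. The lengths are those of all annotated exons together, so a gene with rare long isoforms is understated.

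**Figure D3:**
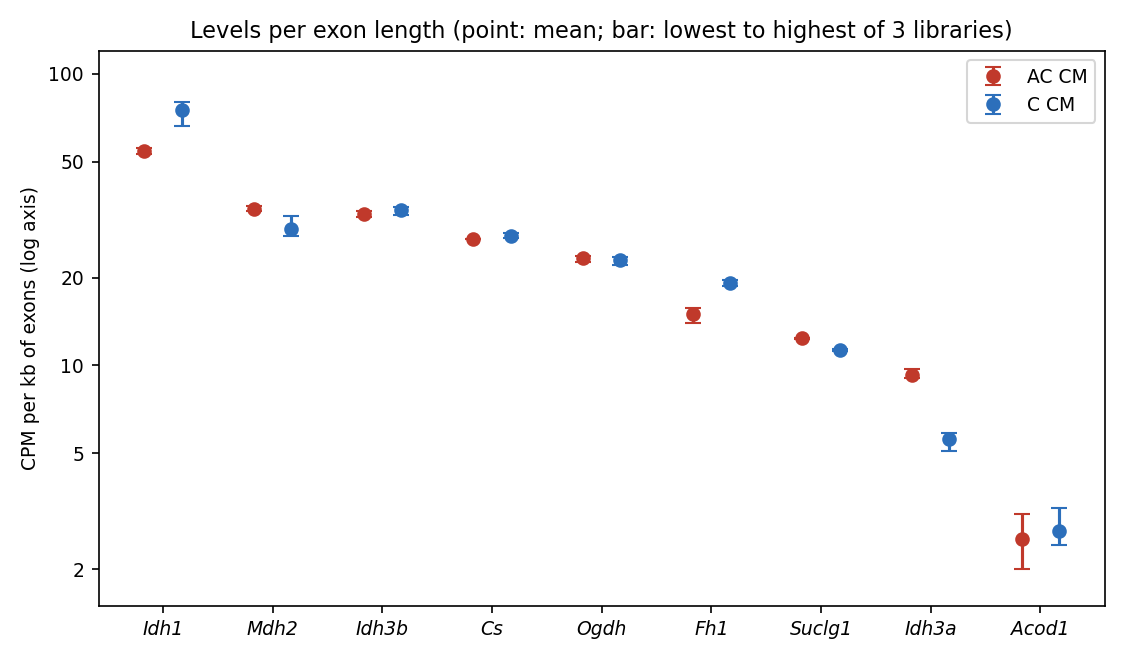
Level in CPM per kilobase of annotated exons (log axis) of the 9 transcripts, in AC CM (red) and C CM (blue) libraries, with the mean as a point and the lowest to highest of 3 libraries as a bar. Idh1 is highest and Acod1 lowest in both groups, and Idh3a, next to last, averages 9.30 in AC CM and 5.61 in C CM libraries.

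Of the 10 remaining TCA cycle subunits tested, 2 rose (Dld, Suclg2), 1 fell (Idh3g) and 7 did not pass. Their median log2 fold change was 0.08. Over these subunits and the lists below, 7 of 54 genes tested rose and 7 fell. Over all genes tested, 13.3% were higher and 13.3% lower, so the list counts by themselves are not a result about these genes. On AC CM replicate 1 alone, the log2 fold changes of Dld, Suclg2 and Idh3g were 0.42, 0.26 and -0.52. Far fewer genes were called in that fit over all genes tested. The succinate dehydrogenase subunit genes Sdha, Sdhb, Sdhc and Sdhd had log2 fold changes of 0.03, -0.11, 0.12 and -0.06, and none passed. Over the 4 genes the 95% intervals of the fold lay between 0.837 (Sdhb) and 1.20 (Sdhc).

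Genes for the entry of pyruvate included Pdk2, with the lowest log2 fold change of the 63 cycle, entry, carrier and itaconate genes tested. Of 14 tested, 3 rose, 1 fell and 10 did not pass, with a median log2 fold change of 0.04. Pdp1, the phosphatase that activates pyruvate dehydrogenase, had 48.0, 42.6 and 47.4 CPM in AC CM libraries, against 27.2, 28.6 and 27.5 CPM in C CM libraries. Its log2 fold change was 0.73 (SE 0.08, adjusted p = 2.82e-04, edgeR). Pdk2, a kinase that inactivates the same enzyme, had 11.4, 12.1 and 9.03 CPM in AC CM libraries, against 23.7, 23.1 and 22.8 CPM in C CM libraries. It fell by 1.10 on the log2 scale (SE 0.13, adjusted p = 3.63e-04, edgeR). The groups did not overlap for Pdp1 or for Pdk2. The other phosphatase genes listed, Pdp2 and the regulatory subunit gene Pdpr, did not pass, with log2 fold changes of 0.09 (adjusted p = 0.663) and -0.29 (adjusted p = 0.0984).

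The pyruvate dehydrogenase subunit genes Dlat and Pdhx rose by 0.41 (adjusted p = 0.00504) and 0.64 (adjusted p = 0.00585) by the same edgeR test. The subunit genes Pdha1 and Pdhb did not pass that test, at 0.15 (adjusted p = 0.0984) and 0.07 (adjusted p = 0.569). On AC CM replicate 1 alone the fold changes were no smaller, at 0.48 for Dlat and 0.68 for Pdhx, but neither passed (adjusted p = 0.0920 and 0.0573 in that order). Those of Pdp1 and Pdk2 held in every alternative run. Of the other pyruvate dehydrogenase kinase genes, Pdk1, Pdk3 and Pdk4 did not pass, with log2 fold changes of 0.00, -0.33 and -0.17.

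A list headed cytosolic citrate, malate and NADPH enzymes held 9 genes, although Me2, Me3 and Got2 among them encode mitochondrial enzymes. It gave 0 rises and 2 falls, and 7 did not pass (median log2 fold change -0.07). Beside Mdh1, the cytosolic acetyl-CoA synthetase gene Acss2 fell by 1.08 on the log2 scale (SE 0.20, adjusted p = 0.00461, edgeR), with 2.63, 4.31 and 4.19 CPM in AC CM libraries against 7.11, 8.38 and 8.11 CPM in C CM libraries. Acly, which splits exported citrate, did not pass (log2 fold change -0.03, adjusted p = 0.791). The 6 mitochondrial carrier genes gave 1 rise, 1 fall and 4 that did not pass (median -0.02). Slc25a13, an aspartate and glutamate exchanger of the malate-aspartate shuttle, rose by 0.86 (SE 0.13, adjusted p = 0.00129, edgeR), with 25.3, 24.6 and 23.3 CPM in AC CM libraries against 11.3, 15.4 and 13.5 CPM in C CM libraries. Slc25a12, the gene of the other such exchanger, did not pass (log2 fold change 0.04, adjusted p = 0.773, edgeR). It averaged 40.7 CPM in AC CM libraries and 39.7 CPM in C CM libraries. Slc25a10, the dicarboxylate carrier gene, fell by 0.48 (adjusted p = 0.0162). The Slc25a10 call was lost without AC CM replicate 1, 2 or 3 (adjusted p = 0.0593, 0.0519 and 0.0627) and without AC CM replicates 2 and 3 (0.209), with log2 fold changes of -0.47, -0.50, -0.47 and -0.51 in those fits.

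The 9 genes tested for glutamine and 2-oxoglutarate entry gave 0 rises, 1 fall and 8 that did not pass (median log2 fold change -0.16). Gpt2, the mitochondrial alanine aminotransferase gene, fell by 0.33 (SE 0.10, adjusted p = 0.0335, edgeR). The Gpt2 call was lost without AC CM replicate 1, 2 or 3 (adjusted p = 0.113, 0.114 and 0.0682), without C CM replicate 3 (0.0926) and without AC CM replicates 2 and 3 (0.281). In those fits the log2 fold change was -0.31, -0.32, -0.37, -0.30 and -0.39. Glud1, the glutamate dehydrogenase gene, did not pass, at 303 ± 11.0 CPM in AC CM libraries and 305 ± 3.10 CPM in C CM libraries (SD, n = 3 each).

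Genes tied to itaconate gave 1 rise and 1 fall among 6 tested, with a median log2 fold change of -0.08. Rab32, a small GTPase that works with the Acod1 product in delivering itaconate to bacteria-containing vacuoles, had 109.9, 119 and 109 CPM in AC CM libraries, against 70.2, 74.3 and 77.3 CPM in C CM libraries. It rose by 0.61 (SE 0.07, adjusted p = 3.55e-04, edgeR). Keap1, whose protein itaconate modifies, fell by 0.34 (SE 0.08, adjusted p = 0.0134, edgeR), and the call was lost without AC CM replicate 2 (adjusted p = 0.0634) or 3 (0.0648). Without both, Keap1 stood at -0.21 (adjusted p = 0.437). Nfe2l2, the NRF2 gene, stood at -0.01 (adjusted p = 0.958). Irf1, an interferon-induced activator known to drive Acod1, had 70.6, 54.1 and 48.9 CPM in AC CM libraries, against 82.0, 74.9 and 144 CPM in C CM libraries. Its log2 fold change of -0.79 (SE 0.30) did not pass (adjusted p = 0.116, edgeR), with C CM replicate 3 far above the others. Without C CM replicate 3 it was -0.44 and did not pass, and over all 17 alternatives the adjusted p ran from 0.0743 to 0.598. Clybl, which degrades an itaconate breakdown product, did not pass (0.35, adjusted p = 0.131). The receptor genes Sucnr1 and Oxgr1 were too low to be tested: Sucnr1 had 20 counts in AC CM replicate 3 and 0 elsewhere, and Oxgr1 had 0 in every library, which allows up to 3 counts a library.

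**Figure D4:**
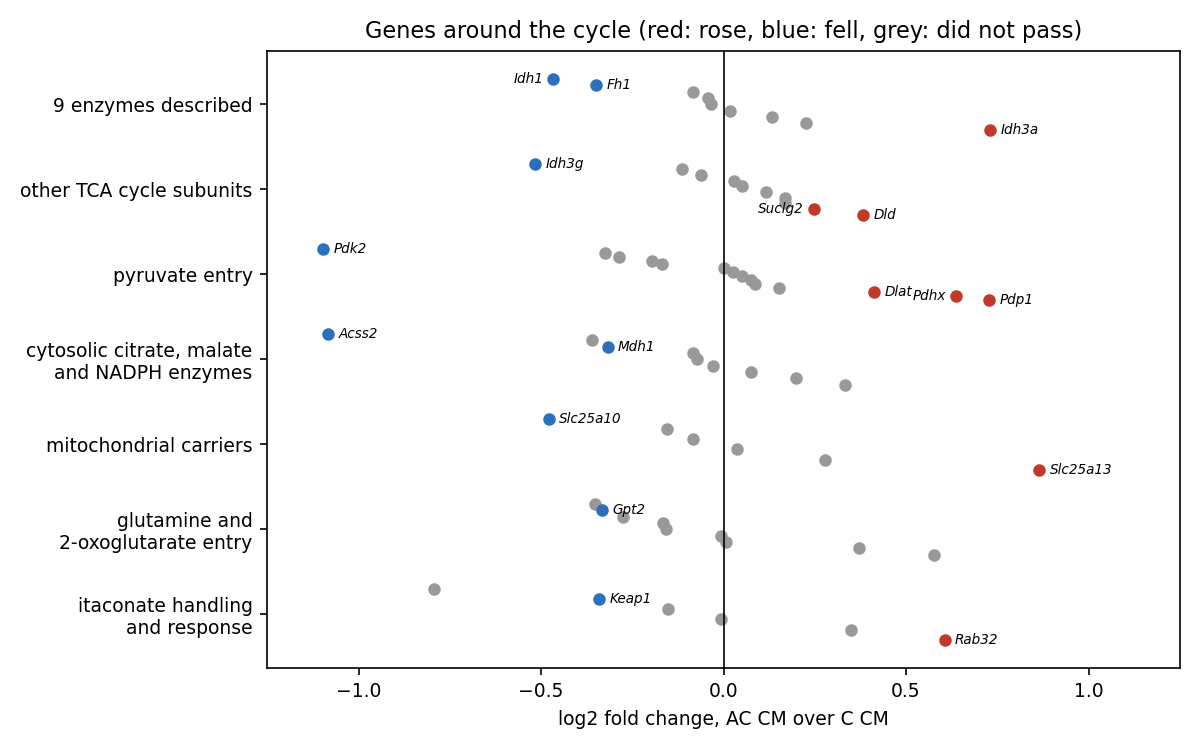
Log2 fold change of AC CM over C CM (x axis) of each tested gene in 7 lists (y axis), 1 point a gene, red where it rose, blue where it fell and grey where it did not pass. Pdk2 and Acss2 lie lowest, at -1.10 and -1.08, and Slc25a13, Idh3a and Pdp1 lie highest, at 0.86, 0.73 and 0.73.

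Groups that do not overlap were counted as a description. Of the 9 members 6 had no overlap between AC CM and C CM libraries, beside 44.7% of all genes tested. In the authors' deposited table the calls for Idh3a, Idh1 and Fh1 had adjusted p of 2e-11, 1.5e-05 and 0.00118, and no other member was under 0.05.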

How the data were processed

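Per the labels' protocols, mRNA libraries made from total RNA were sequenced on an Illumina instrument. The authors deposited raw read counts, which were analysed. A second set of deposited columns, a scaled signal, is each library's count times 1 constant and was used only to check that. The log2 fold changes and p-values that the authors deposited were only read. The submitters' processing notes name HISAT2 2.1.0 and fastp 0.17.1, besides R 3.4.3 with DESeq2 1.18.1, without roles. The read counter, annotation and build were not given in the sources used here. Gene positions come from the table, and 95.2% of identifiers found in GENCODE M21 (GRCm38) had the same ones. Where a symbol repeats, the row with most counts was kept.

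Genes passing edgeR's filterByExpr (17863) were TMM-scaled and compared by edgeR 4.0.16 (R 4.3.3; robust quasi-likelihood fit, group as only term), with Benjamini-Hochberg adjustment over all genes tested. CPM use TMM-scaled library sizes. Intervals are 95% intervals of the fit. Ratios of counts were tested by exact two-sided permutation (scipy 1.17.1). Alternatives were DESeq2 1.42.0, limma-voom 3.58.1, 3 other scalings, 2 other filters, the replicate block, counts divided by 4, the 20 most counted genes left out, each library left out, and AC CM replicates 2 and 3 left out. Low counts favoured multiples of 4, so totals may overstate independent fragments. The procedure was also run on simulated counts with few genes changed and the same spread for every gene. That setting differs from these data, so the run gives no error rate for them. Exon lengths are the union of GENCODE M21 exons, and promoters are RefSeq's.

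The members and lists were chosen with earlier results of these data known. From the other lists, 2 genes are not reported here and are in none of the list counts or plots. Named genes are the 9 members, up to 4 called genes of each list with the smallest p, a fixed set (Sdha to Sdhd, Idh2, Idh3g, Irf1), and the 4 nearest profiles to Acod1 and Idh3a at a mean of at least 5 CPM. Acly, Me2, Me3, Got2, Pdha1, Pdhb, Slc25a12, Pdp2, Pdpr, Pdk1, Pdk3, Pdk4, Glud1, Nfe2l2, Clybl, Sucnr1, Oxgr1, Ogdhl, Csl, Kmo, Nop56, Mmp8, Retnlg, Acan, Hapln1 and Col9a1 were named after their values were seen. So were the markers Ly6c2, Vcan, Col2a1, Col11a1, Prg4, Sox9 and Matn1.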

Additional observations from a re-analysis of the deposited data

How the results depend on the processing

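Of 153 values of the 9 members over 17 alternatives, 145 kept their direction and call. The Idh1 and Fh1 calls were lost on AC CM replicate 1 alone, and Mdh2 gained a call with DESeq2 and without C CM replicate 1. No called gene turned direction. Genes without a call did so in 9 values, none of which passed. With upper quartile scaling the log2 fold change was -0.00485 for Ogdh. Leaving out 1 library, it ran from -0.00997 to 0.0397 for Ogdh, -0.245 to 0.0716 for Acod1, -0.0233 to 0.0626 for Sdha, -0.245 to 0.0937 for Dcps and -0.115 to 0.136 for Abr. Over all 37 named genes, 28 of 629 values lost a call and 3 gained one.

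On AC CM replicate 1 alone, 1274 genes were called, 510 higher and 764 lower, with 1 of the 9 members, 0 of them lower; that fit has 4 libraries. DESeq2 called 2 members higher. Leaving out 1 library gave 3158 to 5023 genes called, 1511 to 2667 higher and 1647 to 2356 lower. The fewest came without AC CM replicate 3 (3158, 1511 higher), and without AC CM replicate 2 there were 1546 higher. From 3 to 4 members were called, 1 to 2 of them higher (2 without C CM replicate 1). Correlations of deviations from the group means were -0.0616, 0.0311 and 0.0378 between same-numbered libraries. Between differently numbered libraries they ran from -0.0808 to 0.0530. These values cannot settle whether libraries were paired. With the replicate number as a block, 4397 genes and 3 members were called, and the Suclg2 and Gpt2 calls were lost (adjusted p = 0.0503 and 0.0550). The count ratios kept their sign in every alternative, and sign flips within the block allow no p under 0.25. Acod1 varied most among the members, with coefficients of variation of 21.5% in AC CM libraries and 17.8% in C CM libraries, and dividing counts by 4 left its log2 fold change at -0.08.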
